A study of Mus musculus with 2 samples.

Results

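The 3 genes of one peptide hormone system were examined in cultured embryonic mouse ureters: Aplnr, which encodes the apelin receptor, and Apela and Apln, which encode its ligands. They were picked by gene name from probes of an expression array with 29875 named genes, of which 21574 were bright enough to be tested. All 3 genes were on the array, with 1 probe each, and all 3 passed the brightness filter in every channel. Apela had been singled out because its fall under treatment was the second largest on the array. The values of the 3 genes are therefore given as a description of this contrast, without a test.

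Ureters of wildtype NMRI embryos at E12.5 were cultured on membranes for 18 h. The medium held 10 µM BIO, an inhibitor of the kinase GSK3 that is used to activate canonical WNT signaling, or only the solvent DMSO at 2 parts in 1000 (control). Total RNA of both cultures was hybridized to the same 2-color array, and there were 2 such arrays from separate pools of ureters, with the dyes exchanged between them. The sex of the embryos was not determined, and the explants held epithelium, mesenchyme and vessels together. In such bulk RNA, fewer cells of a type and less RNA per cell cannot be told apart. GSK3 has substrates other than beta-catenin, and a single dose and a single time were examined.

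The apelin receptor is a G protein-coupled receptor related in sequence to the angiotensin receptors. It couples mainly to inhibitory G proteins and, through arrestins and kinases, acts on the growth, shape and movement of endothelial cells. Apelin, the product of Apln, is made by the tip cells of sprouting vessels in many tissues, whereas the receptor is well known from venous and sprouting endothelium. Apela, also called Elabela or Toddler, is a short secreted peptide hormone that is best known from gastrulation, heart development and the placenta.

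All 3 genes were lower under a WNT-activating agent, so motifs of WNT effectors and other factors were looked for upstream of them. The sequences of both ligand genes are shown. No promoter of Aplnr was found in the sequences used, so the receptor gene is left out for that reason only. Each is the stretch of 250 bases before the RefSeq start of the gene (assembly GRCm38.p6), written 5′ to 3′ on the strand of the gene. It lies at chr8:65037337-65037586 (minus strand) for Apela and at chrX:48034854-48035103 (minus strand) for Apln. Capitals mark matches to the motifs that were searched.
Apela promoter: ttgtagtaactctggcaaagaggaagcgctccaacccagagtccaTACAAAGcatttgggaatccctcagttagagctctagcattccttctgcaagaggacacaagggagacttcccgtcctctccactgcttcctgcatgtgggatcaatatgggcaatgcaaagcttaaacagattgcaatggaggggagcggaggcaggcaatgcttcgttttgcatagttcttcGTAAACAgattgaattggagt
Apln promoter: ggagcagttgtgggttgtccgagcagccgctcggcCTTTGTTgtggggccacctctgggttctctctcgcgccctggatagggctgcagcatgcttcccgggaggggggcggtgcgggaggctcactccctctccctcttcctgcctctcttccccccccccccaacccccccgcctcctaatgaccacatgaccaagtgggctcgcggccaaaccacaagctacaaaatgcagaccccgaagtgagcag

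A TCF/LEF motif, the binding sequence of the transcription factors through which beta-catenin acts, was searched on both strands in 4 forms. These were CTTTGAA, the form CTTTGAT with another last letter, the form CTTTGTA with another sixth letter and the form CTTTGTT with both changed. The Apela stretch held 1 match, the reverse complement TACAAAG, 205 to 199 bases before the start. The Apln stretch held 1 match, CTTTGTT, 215 to 209 bases before the start. Of 32851 promoters searched in the same way, 14.8% held such a motif. The forkhead motif GTAAACA was found in the Apela stretch only, 21 to 15 bases before the start, and in 3.17% of all promoters. The core letters of the hypoxia response element, ACGTG, were not in either stretch and were found in 16.6% of all promoters. No matches overlapped one another. The Apela stretch had a GC content of 48.0% and the Apln stretch of 65.2%. These matches are descriptions of letters, and binding was not measured.

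The receptor gene Aplnr was lower in BIO-treated than in control ureters on both arrays. Its probe lies on chromosome 2 at 84979638 to 84979697 (mm9, plus strand). The processed signal, an intensity from which the scanner software had subtracted background and dye bias, was 236 in the control channel against 60.4 in the BIO channel of replicate 1. In replicate 2 the control channel read 326 and the BIO channel 62.1. The BIO channels thus lay close together, while the control channels differed by 1.38-fold between the arrays. Spot by spot, the highest BIO value on either array was 71.4 and the lowest control value was 229. The 4 spots of a probe are technical repeats, so that their spread says nothing about replicate ureters. After background correction and loess normalization, the first array gave a log2 ratio of BIO over control of −1.70 and the second of −2.02. The mean was −1.86 ± 0.16 (SE, n = 2 arrays), which is 3.63-fold lower expression with BIO. The 4 spots of the probe spread with an SD of 0.172 and 0.108 on the log2 scale, and all were well above background in both channels. Before subtraction, the BIO channel of Aplnr read 182 and 162 on the 2 arrays, against a local background of 60.25 and 26.5 around its spots.

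Apela, a ligand, had the widest difference of the 3 genes. The probe lies on chromosome 8 at 67552548 to 67552607 (mm9, minus strand). On the first array the processed signal was 3609 in the control and 240 in the BIO channel. On the second array the same channels read 3317 and 295. Both control channels were thus high, at 1.09-fold of one another, and both BIO channels were low, at 1.23-fold of one another. Among these technical repeats, the lowest control spot read 3249 and the highest BIO spot 303. Log2 ratios of −3.84 and −3.40 on the first and second array averaged −3.62 ± 0.22 (SE, n = 2 arrays). This is 14.3-fold lower on one array and 10.6-fold lower on the other, and 6.64% and 8.91% of the control signal remained in the BIO channel by processed signals. The BIO signal of Apela did not go down to background, since all 4 spots were well above it on both arrays. The spots of replicate 1 lay between −3.88 and −3.81 and those of replicate 2 between −3.59 and −3.30, so that the spots of the 2 arrays did not overlap.

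Among all genes tested, Fabp4, a fatty acid carrier, stood before Apela at −4.18. The next genes after it were the forkhead factor gene Foxq1 at −3.46 and Ugt2b34, of a family of glucuronosyltransferases, at −3.17. Aplnr held position 110 from the lowest ratio, within the lowest 0.510% of genes, and Apln position 1481, within the lowest 6.86%. These positions are part of how the genes were found or follow from the same contrast, and they carry no further weight.

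Apln, the other ligand, differed least. The probe lies on chromosome X at 45378593 to 45378652 (mm9, minus strand). Processed signals were 505 in the control and 377 in the BIO channel of the first array, against 598 and 356 on the second. Control spots, again technical repeats, read 464 or more and BIO spots 402 or less. Log2 ratios were −0.53 on the first array and −0.73 on the second. They averaged −0.63 ± 0.10 (SE, n = 2 arrays), or 1.55-fold lower expression with BIO. In the BIO channel 74.5% of the control signal remained in replicate 1 and 59.5% in replicate 2.

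**Figure D1:**
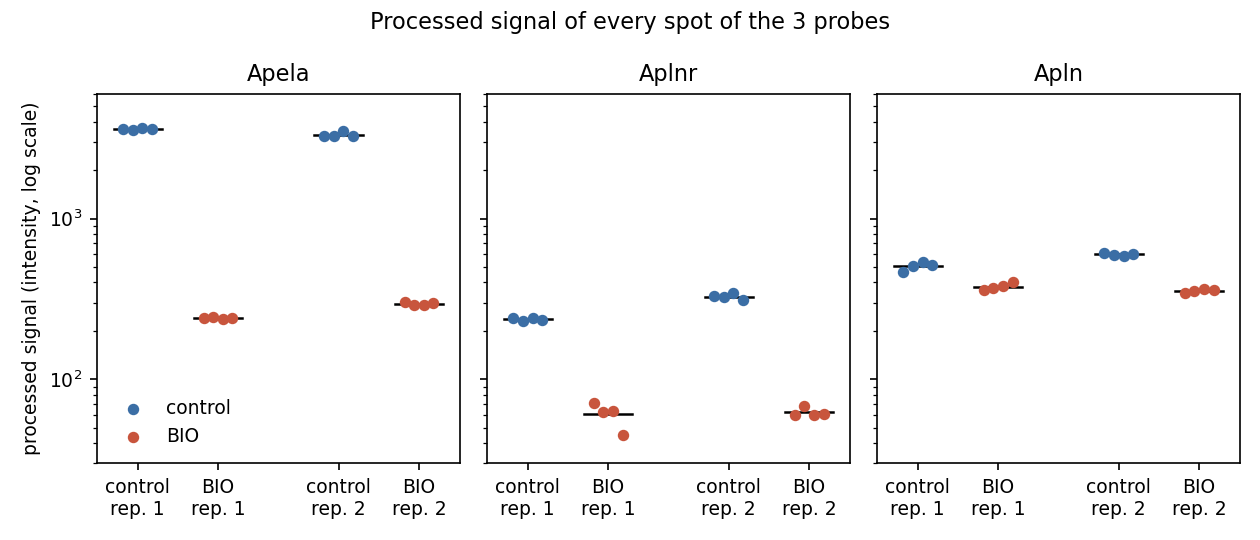
Processed signal (intensity, log scale) of every spot of the Apela, Aplnr and Apln probes in the control channel (blue) and the BIO channel (red) of both arrays. Each point is 1 of 4 spots, which are technical repeats, and black lines are means. Control lies above BIO for each gene on each array, and the distance is widest for Apela (3609 and 3317 against 240 and 295) and narrowest for Apln.

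The size of the difference thus ran from Apela through Aplnr to Apln. The gap between Apela and Aplnr was 1.76 on the log2 scale, with 2.14 on the first array and 1.39 on the second. The gap between Aplnr and Apln was 1.23, with 1.18 and 1.29. Between the arrays, the ratio differed by 0.44 for Apela, 0.31 for Aplnr and 0.21 for Apln. Apela was chosen for its fall in this same contrast, so its place in the order is a description and was not tested. Replicate 1 had the larger difference for Apela, whereas replicate 2 had the larger one for Aplnr and Apln.

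**Figure D2:**
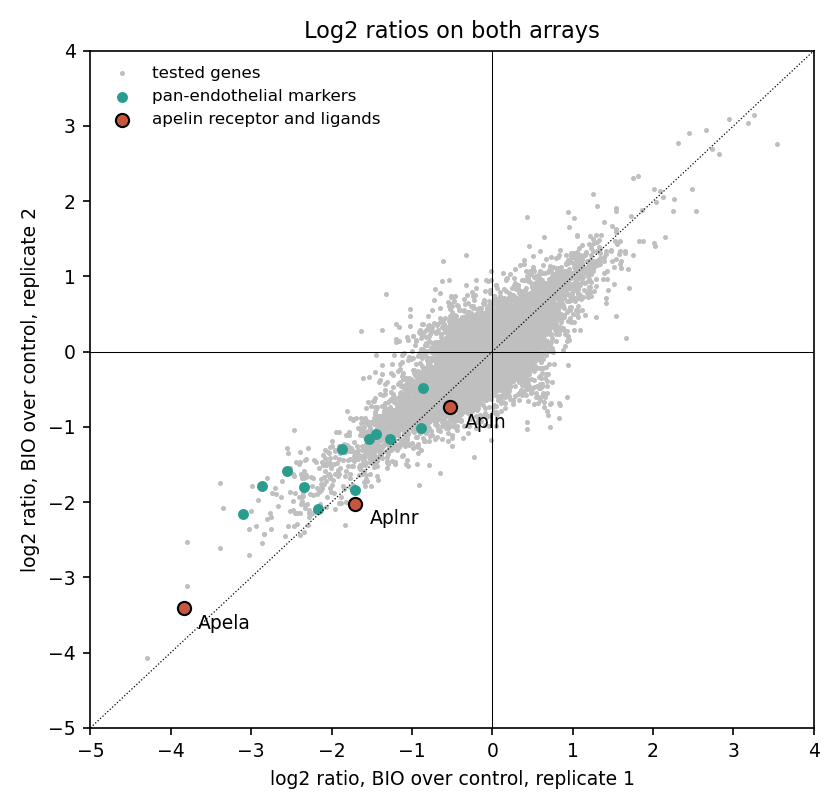
Log2 ratio of BIO over control in replicate 1 (x axis) and replicate 2 (y axis) for the 21574 tested genes (gray), 12 pan-endothelial markers (green) and the 3 genes of the apelin system (red), with the line of equal ratios dotted. Apela lies at −3.84 and −3.40, beyond every pan-endothelial marker, Aplnr at −1.70 and −2.02 among them, and Apln at −0.53 and −0.73 at the edge of the mass of genes.

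To place each gene among others, the genes with the nearest pair of ratios on the 2 arrays were listed. The likeness is a distance over 2 values only, so that many genes lie near a small ratio and few near a large one. Nearest to Aplnr was Cxcr4, the receptor of the chemokine Cxcl12 and a marker of tip cells, with ratios of −1.71 and −1.96 and a distance of 0.0597. Col24a1, a collagen gene, Tinagl1, Plvap, which encodes a protein of endothelial fenestrae, and Cd55b followed at distances of up to 0.198. These distances were taken at a single setting of the background correction, and the nearness of Cxcr4 depends on it. With the processed signals the mean ratio was −2.19 for Aplnr and −1.83 for Cxcr4. With an offset of 16 the means were −2.04 and −1.85. Near Apela lay Foxq1 at a distance of 0.291, and then Fabp4, Ugt2b34, Gimap4 and Tm4sf1 at 0.808 to 1.08. Near Apln lay Ctnnb1, the gene of beta-catenin itself, at −0.52 and −0.73, and Gstm3, Faah, Fbxl17 and Ypel2, all within 0.0232.

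Next to the 3 genes on their chromosomes, 18 protein-coding neighbors (3 on each side, in the order of RefSeq on GRCm38.p6) were looked up. Of these, 13 were tested, and 4 fell and 0 rose at an adjusted p below 0.05 (limma), while 14.8% of all tested genes fell. Trim61, of the tripartite motif family and directly beside Apela, fell to a log2 ratio of −0.97 (limma's SE 0.11, adjusted p = 0.000601), and the next gene on that side, Trim60, stood at −0.02. Lrrc55, directly beside Aplnr, fell to −0.48 (adjusted p = 0.0250). Near Apln, Smarca1, a chromatin remodeling enzyme, fell to −0.37 (adjusted p = 0.0436) and Sash3, an adaptor of lymphocytes, to −0.49 (adjusted p = 0.0423). Each of these 4 ratios was nearer to 0 than that of the apelin system gene beside it, with Sash3 and Apln closest, at −0.49 and −0.63.

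The other genes of the pathway were taken from a list of 36 genes, of which 35 were tested and Fgf2 was too dim. Of these 35, 15 fell and 0 rose (limma, adjusted p below 0.05, n = 2 arrays). Over all genes tested 23.9% were called, with 14.8% lower and 9.13% higher. At an unadjusted p below 0.05 (limma), 19 of the 35 were lower and 0 higher. Over all 21574 genes tested, 7919 were below that threshold in either direction. The lower genes alone were not counted over all genes there, so the 19 lower genes have no share beside them. The median log2 ratio of the list was −0.33, with −0.28 in replicate 1 and −0.37 in replicate 2, while that of all genes was −0.01. By a rule without a test (at least 100 in the brighter channel and at least 2-fold the same way on both arrays), 7 of the 35 were lower and 0 higher. That rule was met by 3.08% of all genes, 2.04% lower and 1.04% higher. With the deposited score table, which is rounded to 1 decimal, 0 of the list fell and 1 rose, with 12 lower at an unadjusted p below 0.05. The count of all genes at that unadjusted threshold was not made for the score table. Over all genes that table gave 1319 falls and 1929 rises, in place of 3184 and 1970.

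Among genes for the making and breakdown of the ligands, Furin, a protease that cleaves peptide precursors, stood at −0.87 and −0.51 on the 2 arrays and fell, with a mean of −0.69 (adjusted p = 0.00587, limma). Mme, which encodes neprilysin, had a ratio of −0.34 and the kallikrein gene Klkb1 of −0.16, neither called.

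Of 9 genes for G proteins, arrestins and receptor kinases, 2 fell (22.2%, beside 14.8% of all genes), and the median was −0.04. Grk5, a kinase that phosphorylates active receptors, fell to −1.23, and Gnai2, an inhibitory G protein subunit, to −0.66. The highest ratio was that of another inhibitory subunit, Gnai1, at 0.18 and not called. The other 7 genes of this group were not called. Of 8 kinases downstream, 1 fell, beside the same 14.8% of all genes: Pik3cg, the phosphoinositide 3-kinase that G proteins activate, stood at −1.80 and −1.44 and fell, with a mean of −1.62 (adjusted p = 0.000128, limma). The highest ratio in this group was that of Prkaa1, a subunit of AMP-activated kinase, at 0.03.

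Of 8 tested genes listed as effectors in endothelial cells, 6 fell (75%, beside 14.8% of all genes). Under the rule without a test, 2 of the 8 were lower, beside 2.04% of all genes. Which cells of the explant held the RNA of these 8 genes was not measured. Klf2, a transcription factor gene that responds to flow, had processed signals of 1569 and 1913 for control against 211 and 339 for BIO. It fell to a log2 ratio of −2.63 (limma's SE 0.13, adjusted p = 3.18e-05, limma), with BIO below control on both arrays. Nos3, the endothelial nitric oxide synthase, read 1352 and 1586 for control against 236 and 422 for BIO and fell to −2.17. Smaller falls were those of the growth factor receptor gene Fgfr1 (−0.66), the transcription factor genes Mef2c (−0.51) and Mef2a (−0.41) and the deacetylase gene Hdac5 (−0.38). Mef2d was highest at 0.06. The calls of Mef2a and Hdac5, with adjusted p of 0.0308 and 0.0456, were among those lost under several other settings.

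Of 6 genes known to act on the transcription of Apln, 4 fell (66.7%, beside 14.8% of all genes). Angpt1, the ligand of the receptor Tie2, fell to −1.98, and Tek, which encodes Tie2, to −1.27. Epas1, the hypoxia-inducible factor of endothelium, stood at −2.33 and −1.44 and fell, with a mean of −1.88. Foxo1, a forkhead factor downstream of Tie2, fell to −0.38 with an adjusted p of 0.0453 (limma), also a call lost under several settings. Arnt, the partner of the hypoxia-inducible factors, was highest at −0.03.

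**Figure D3:**
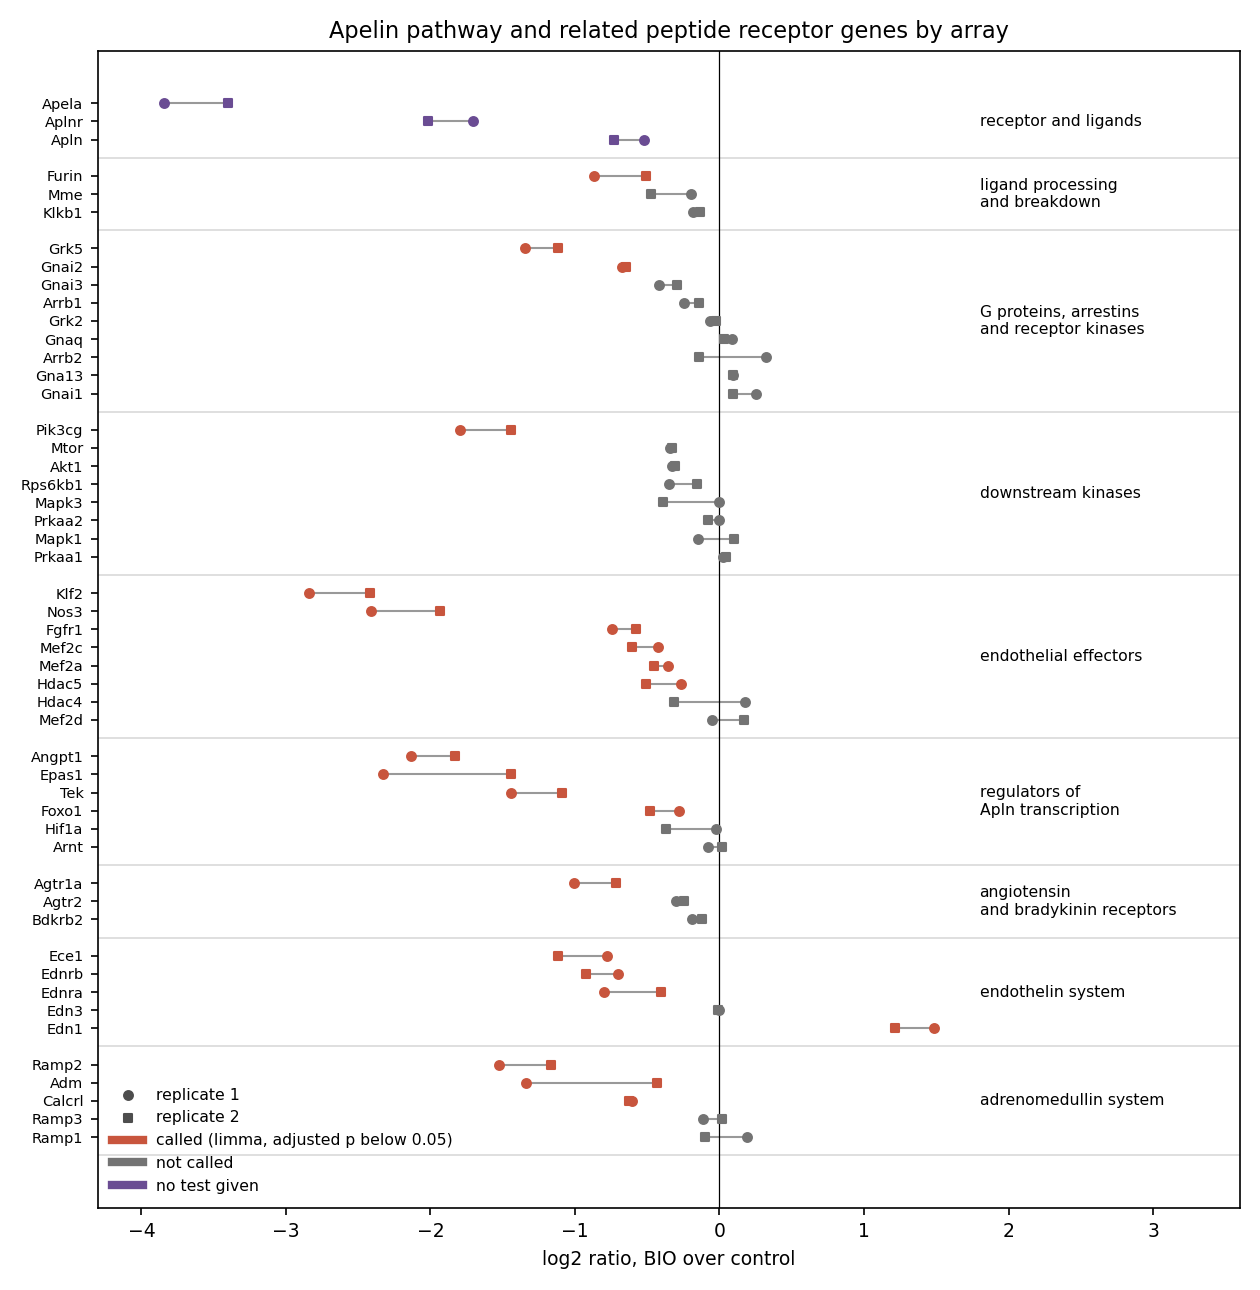
Log2 ratio of BIO over control (x axis) for the 3 genes of the apelin system and tested genes of the pathway and of related peptide systems, grouped by role. Circles are replicate 1, squares replicate 2, red marks genes called by limma, gray those not called, and purple the 3 genes given without a test. Red symbols at the far left belong to Klf2, Nos3, Angpt1 and Epas1, and Edn1 at 1.49 and 1.21 is the one called gene on the right.

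Other peptides that act on vessels through G protein-coupled receptors were set beside the apelin system. Of 16 such genes 13 were tested, and 7 fell (53.8%, beside 14.8% of all genes). In the other direction 1 rose (7.69%, beside 9.13% of all genes), and the median log2 ratio was −0.60. Edn1, which encodes the vasoconstrictor endothelin-1, read 105 and 100 for control against 372 and 279 for BIO. It rose by 1.35 (limma's SE 0.12, adjusted p = 0.000205, limma), opposite in sign to Apela and Apln on both arrays. Its converting enzyme gene Ece1 fell to −0.95 and its receptor genes Ednrb and Ednra to −0.81 and −0.60. In the adrenomedullin system, the ligand gene Adm fell to −0.89, with an uneven −1.34 and −0.44 on the 2 arrays. The receptor gene Calcrl fell to −0.62 and its partner Ramp2 to −1.35, and Ramp1 was highest at 0.04. Agtr1a, an angiotensin receptor gene, fell to −0.86, while Bdkrb2, a bradykinin receptor gene, was at −0.15 and not called.

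Endothelial markers moved in the same direction as the receptor and its ligands. All 12 pan-endothelial markers fell, beside 14.8% of all genes. They ranged from Kdr, the main VEGF receptor, at −2.63 to the transcription factor gene Erg at −0.67. Their median was −1.68, with −1.79 in replicate 1 and −1.44 in replicate 2. Their summed processed signal was 31314 and 37995 in the control channels and 6139 and 11235 in the BIO channels. They did not vanish, as 11 of 12 stayed well above background in the BIO channel of replicate 1 and 12 of 12 in that of replicate 2. The ratio of Erg is not well measured, since its probe was dim, at 23.5 and 23.6 for control against 3.40 and 9.63 for BIO, and not well above background in the BIO channel of replicate 1. Erg passed the brightness filter through the control channels only, where it was brighter, so its fall adds little to the count. Its ratio was −2.12 with the processed signals and −1.03 with an offset of 16. The highest of the other markers was Eng, an endothelial co-receptor gene named here after its value was seen, at −0.95. Aplnr, at −1.86, lay within the range of these markers and Apela, at −3.62, below their lowest, while Apln, at −0.63, was nearer to 0 than Eng. The part of vessel content in the values of the 3 genes was not tested.

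Of 10 tip cell markers 8 fell (80.0%, beside 14.8% of all genes), led by Esm1, a secreted proteoglycan, at −3.39 and −1.75. The Notch ligand gene Dll4 and Cxcr4 both fell to −1.83, Angpt2 to −1.56, Pdgfb to −1.22, Kcne3 to −0.95, Unc5b to −0.81 and Plaur to −0.70, whereas Ramp3 stood highest at −0.05. The summed signal of this list was 32678 and 35387 for control and 18027 and 20766 for BIO. Such a sum follows its brightest genes. Here these were Unc5b, at 13911 and 14557 for control and 7830 and 8981 for BIO, and Nid2, which was not called (−0.08). Of 6 arterial markers 5 fell (83.3%, beside 14.8% of all genes). These were Sox17 at −2.48, Gja5 at −2.36, Gja4 at −2.11, Hey1 at −1.96 and Efnb2 at −0.68, while Bmx was at 0.07. The arterial sum was 28583 and 32337 for control and 13012 and 14015 for BIO. Efnb2 alone read 14339 and 15468 for control and 10188 and 9209 for BIO. Of 5 venous markers 3 fell (60.0%, beside 14.8% of all genes), Nrp2 to −1.13, Flt4 to −0.62 and Nr2f2 to −0.52, and Ephb4 was at 0.00. Flt4 was dim, not well above background in the BIO channel of replicate 1, and its ratio was −1.44 with the processed signals. It too passed the brightness filter through the control channels only. Their sum was 18154 and 21230 for control and 12506 and 16367 for BIO.

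Markers of the other cells of the explant also moved. Of 10 epithelial markers 5 fell (50.0%, beside 14.8% of all genes). These were the keratin genes Krt7 (−1.74), Krt19 (−1.24), Krt8 (−0.91) and Krt18 (−0.89) and the cadherin gene Cdh1 (−1.04). Rab25 was highest at 0.07. The epithelial sum was 81058 and 81551 for control and 45338 and 52402 for BIO. Of 8 mesenchymal markers 7 fell (87.5%, beside 14.8% of all genes). Pdgfrb was lowest (−2.17), then Twist1 (−1.19), Col3a1 (−0.91), Pdgfra (−0.79), Col1a2 (−0.72), Vim (−0.56) and Col1a1 (−0.44). Tbx18, a marker of ureteric mesenchyme, stood at −0.22 and was not called. The mesenchymal sum was 301780 and 331875 for control and 183596 and 199861 for BIO. Of 5 tested macrophage markers 4 fell (80.0%, beside 14.8% of all genes). These were Cx3cr1 at −1.75, Ptprc at −0.78, Csf1r at −0.64 and C1qa at −0.44. Adgre1 was highest at −0.04 (−0.35 and 0.28 on the 2 arrays) and not called. The call of C1qa, with an adjusted p of 0.0493 (limma), was lost under several other settings. The macrophage sum was 3751 and 4366 for control and 2122 and 3282 for BIO. All 10 epithelial and all 8 mesenchymal markers were well above background in every channel. Which of these cells held the Apela RNA was not measured.

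As a check of the treatment, the WNT feedback gene Axin2 rose by 2.15 (2.27 and 2.03 on the 2 arrays, adjusted p = 3.41e-05, limma). The reference genes Gapdh and Ppia, at 0.27 and −0.16, were not called. Between 69.1% and 80.0% of probes were well above background per channel, 0 spots were saturated, and the number of arrays limits the precision, with a median standard error of 0.111 for a log2 ratio.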

How the data were processed

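The data comprise 2 Agilent 2-color arrays, each with RNA of BIO-treated and of control ureters, BIO in red (AlexaFluor647) in replicate 1 and in green (AlexaFluor555) in replicate 2. Per the file headers, the authors quantified spots with Agilent Feature Extraction 10.7.3.1 and deposited mean and local background intensities without correction, as well as processed signal intensities that the software had background-subtracted and dye-normalized. The deposited table of 1 score per probe and array behaves as a linear fold change with the sign of the BIO effect. Its making is not given in the sources used here, and its centering is unknown (column medians 1 and 1).

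Using R 4.3.3 and limma 3.58.1, background was corrected by normexp (offset 50, which pulls dim ratios toward 0) and arrays were normalized by loess. Outlier spots (3.83% and 3.54%) were dropped and the remaining spots of a probe averaged. Of 39429 probes, 28824 were tested, those well above background in the control or the BIO channel of both arrays. The dye-swapped ratio was turned, and both ratios were tested against 0, two-sided, with Benjamini-Hochberg adjustment over these probes at 0.05. A gene was represented by its brightest probe. The study's methods state separate pools for the 2 arrays, whose spread enters each test with 1 residual degree of freedom, pooled with a prior of 7.14 degrees of freedom estimated over all probes. Standard errors of tested genes are limma's, from this pooled spread, while those of Apela, Aplnr and Apln come from their own 2 arrays.

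For comparison, an intensity and fold-change rule (at least 100 in the brighter channel, at least 2-fold the same way on both arrays) was applied to median-centered processed signals with a floor of 15. Members, lists and tests were chosen with earlier results of these data known. Named are the 3 genes, the lowest and highest gene of each list, every called gene of lists of up to 10 genes, the 5 nearest genes to each member, and Axin2, Gapdh and Ppia; chromosomal neighbors were added to this rule later. The values of 1 gene that the rule names are not reported here, though the list counts include it. Probes were named through RefSeq (28328 by accession, 3400 by symbol, 243 by synonym), and the other 7458 carry the file's own name. Promoters of 2 of the 3 genes were found in the RefSeq table. Alternatives were processed signals, median centering, an offset of 16, outliers kept, the score table, no filter, the mean of all probes and leaving out an array.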

Additional observations from a re-analysis of the deposited data

How the results depend on the processing

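Apela, Aplnr and Apln were lower with BIO under every alternative run. Without one array, Apela ranged from −3.84 to −3.40, Aplnr from −2.02 to −1.70, Apln from −0.73 to −0.53, the pathway median from −0.37 to −0.28 and the pan-endothelial median from −1.79 to −1.44. A single array leaves no residual degree of freedom, so calls could not be made there. Aplnr moved by more than the SD of its 2 arrays (0.222) with the processed signals (−2.19) and the score table (−2.14). The processed signals also moved the pan-endothelial median to −1.95. The pathway median was −0.24 with median centering and −0.25 with the mean of all probes.

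Against 5154 genes called, 2766 came from median centering, 3248 came from the score table (1038 of them shared) and 665 from the intensity and fold-change rule. The score table called 0 of the pathway genes lower and 1 higher (limma). It called 0 of the related peptide genes, 3 pan-endothelial and 0 tip cell markers lower (limma). At an unadjusted p below 0.05 there were 12, 4, 9 and 5 lower in these lists. The count of all genes at that threshold was not made for this table, so these counts have no share to be read against. The rule gave 7 pathway genes, 1 related peptide gene and 5 tip cell markers lower. The cause was not tested. The calls of 67 genes were followed, those of the lists and that of Axin2. Tek, which is both a pan-endothelial marker and a listed regulator of Apln, was counted once. Of these 67, the score table lost 63, median centering 13 and the processed signals 9. The offset of 16 lost 4, no filter 3 and the mean of all probes 2, and 0 reversed. Apart from the score table, the calls of Mef2a, Hdac5, Foxo1 and C1qa were lost under 4 alternatives each, and those of Ednra, Nr2f2, Col1a1 and Fgfr1 under 2. Calls lost under 1 were those of Mef2c and Adm (processed signals) and of Gnai2, Efnb2, Col1a2, Col3a1 and Vim (median centering). The mean of all probes also moved Gnai2 to −0.33, Mef2a to −0.21, Epas1 to −1.16, Plvap to −1.14 and Gja5 to −1.34. It moved Kdr to −1.79 and Axin2 to 1.64 as well. Median centering moved Col1a1 to −0.11, Col1a2 to −0.38, Col3a1 to −0.58 and Vim to −0.26. No paired analysis was possible because each array already holds its BIO and control RNA as 1 ratio, and no 2 groups of ratios share replicate numbers.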
